A study of Mus musculus with 24 samples.

Results

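The genes described here are 9 that copy DNA or mark dividing cells: Mcm2, Mcm3, Mcm4, Mcm5, Mcm6, Mcm7, Pcna, Mki67 and Top2a. The rule takes them by gene symbol from the 55401 genes that the deposited transcript table adds up to, and all 9 were found. The study set propyzamide, a herbicide that blocks plant microtubules, against an empty vehicle in mice stimulated with anti-CD3, an antibody against the signalling part of the T cell receptor. RNA of 24 bulk libraries was sequenced by SMART-seq2, a protocol made for small amounts of RNA. All mice were male C57BL/6 of 11 weeks, and the 6 groups of 4 libraries were propyzamide unstimulated, vehicle unstimulated, propyzamide 3 h after anti-CD3, vehicle 3 h after anti-CD3, propyzamide 24 h after anti-CD3 and vehicle 24 h after anti-CD3. The series title speaks of T cells in a model of inflammatory bowel disease. The sources used here give neither the tissue nor any cell sort or dose. No label says that the 4 libraries of a group came from separate mice, so p-values measure only the spread between these samples.

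Before a cell copies its DNA, the six-subunit MCM ring, built of Mcm2 to Mcm7, is loaded onto replication origins, where it later works as the helicase that unwinds the double strand. Pcna is the sliding clamp that holds DNA polymerases on their template, Top2a is the topoisomerase that untangles copied chromosomes, and Mki67 encodes Ki-67, a protein of dividing cells that coats mitotic chromosomes. Resting lymphocytes keep these genes low; after stimulation through the antigen receptor, E2F factors switch on the MCM genes and Pcna as cells enter S phase, while Top2a and Mki67 peak later, towards mitosis.

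Depth was low and uneven. The total count ran from 438519 to 2071732 in 23 libraries and was 9812102 in propyzamide 24 h replicate 3. Named protein-coding genes took 3.74% to 9.63% of the counts in the 23 libraries and 29.9% in the deepest. The 9 genes together had 3 to 187 counts in each of the 23 libraries and 4199 in the deepest, which thus held 73.4% of their 5719 counts. Of 55401 genes, 3799 passed the filter on low counts and were tested with edgeR; 8 of the 9 genes were among them, and Mki67, with 79 counts outside the deepest library, was not. Markers of several cell types were present: over the 24 libraries, the 12 T cell markers had a median of 5.31 per 10000 counts of named protein-coding genes, against 28.5 for 10 B cell markers and 27.8 for 16 markers of intestinal epithelium. In such bulk RNA, fewer cells of a type and less RNA per cell cannot be told apart.

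The promoter letters of these genes were compared because these genes are known targets of cell cycle regulators. RefSeq windows on GRCm38.p6, from 250 bases before to 50 bases after the gene start, matched 8 of the 9 genes; Mcm4 was not matched. The 8 genes had 9 windows, and a gene was counted if any of its windows matched, while the share over all windows counts each window. Both strands were searched for the E2F letters TTTCCCGC, TTTCGCGC, TTTGCCGC and TTTGGCGC, for TTTGAA, the letters of the cell cycle homology region (CHR) of late cell cycle genes, and for CCAAT. The E2F letters were in 4 of the 8 genes, Mcm3, Mcm5, Mcm6 and Mcm7, and in 2.26% of all 32851 windows. TTTGAA was in 3 of the 8, Mcm2, Mki67 and Top2a, against 17.9% of all windows, and CCAAT was in 8 of the 8, against 37.4%. A match describes the letters only. The stretches below show the MCM genes with E2F letters and the late genes Mki67 and Top2a with TTTGAA. Mcm2, an MCM gene with TTTGAA 70 bases before the start and no E2F letters, is not shown. Each stretch is given 5′ to 3′ on the strand of its gene, with the matched letters in capitals. The opposite-strand match reads as its reverse complement.
Mcm3, chr1:20820277-20820302, minus strand: acttccgtgGCGGGAAAacttgggaa
Mcm5, chr8:75109347-75109376, plus strand: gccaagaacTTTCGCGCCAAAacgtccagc
Mcm6, chr1:128359733-128359827, minus strand: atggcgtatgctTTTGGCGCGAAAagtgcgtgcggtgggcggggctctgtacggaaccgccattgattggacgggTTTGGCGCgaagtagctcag
Mcm7, chr5:138172032-138172057, minus strand: tttcgaaccGCGGGAAAcagggtgtc
Mki67, chr7:135716481-135716504, minus strand: gcgccagaaTTTGAAccgccgttt
Top2a, chr11:99024354-99024377, minus strand: ttggtccatTTTGAAgattctccc
In Mcm5 and at the first place in Mcm6, 2 matches on opposite strands overlap, which gives the longer run of capitals. The Mcm6 matches began 110, 106 and 47 bases before the start, and the Mcm5 matches 153 and 149 bases before it. The Mcm7 match shown began 165 bases before the start, with a second one 16 bases after it. Mcm7 had a further window, chr5:138171217-138171516, with no E2F letters. In Mcm3 both matches lay after the start, at 19 and 38 bases, and the first is shown. TTTGAA began 116 and 98 bases before the start in Mki67 and 179 and 23 bases before it in Top2a. The first of each is shown.

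The 9 genes summed stood highest 24 h after anti-CD3 with propyzamide. Per 10000 counts of named protein-coding genes, the propyzamide libraries had 16.3, 16.9, 14.3 and 15.9 at 24 h, and 5.87, 5.89, 1.72 and 7.33 at 3 h. On this scale the 4 propyzamide libraries at 24 h lay above each of the other 20. As a share of all counts they did not: propyzamide 24 h replicate 1, at 87.9 in 1000000 counts, was below propyzamide unstimulated replicate 3 at 107 and vehicle unstimulated replicate 2 at 94.0. Over the 3 stages, means (SD, n = 4) were 9.11 ± 2.51 unstimulated, 5.20 ± 2.42 at 3 h and 15.8 ± 1.11 at 24 h with propyzamide. With vehicle they were 7.24 ± 3.00 unstimulated, 5.84 ± 1.51 at 3 h and 10.3 ± 2.29 at 24 h. The summed level at 24 h with propyzamide was thus 3.04 times that at 3 h, 1.74 times that of the unstimulated libraries with propyzamide and 1.53 times that at 24 h with vehicle. With vehicle, 24 h was 1.77 times 3 h, and those groups overlapped; in 1000000 counts of all genes they were apart, at 35.7 to 81.3 at 24 h and 20.4 to 34.9 at 3 h. These sums are given with no test.

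**Figure D1:**
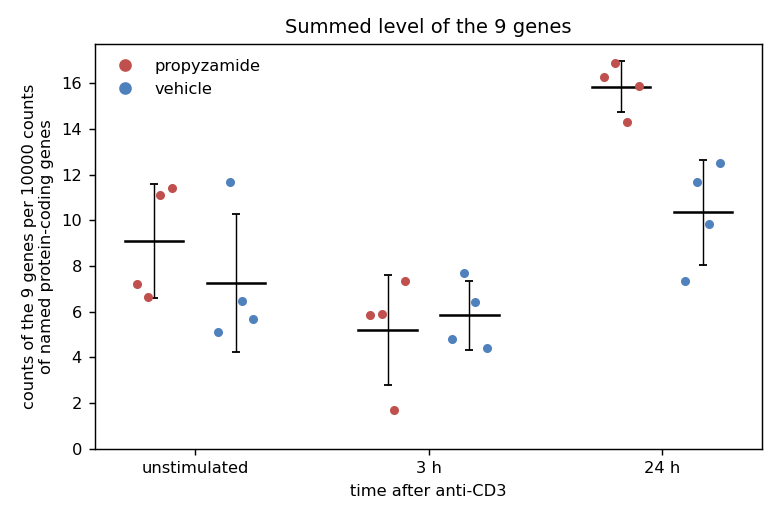
Summed counts of the 9 genes per 10000 counts of named protein-coding genes (vertical axis) in each of the 24 libraries, by time after anti-CD3; points are libraries, lines are means and bars SD (n = 4). The propyzamide libraries at 24 h, from 14.3 to 16.9, lie above every other library on this scale, and the highest vehicle library at 24 h is at 12.5.

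The comparison of 24 h with 3 h after anti-CD3 asks what changed between the early and the late response. With propyzamide, Mcm3, Mcm4, Mcm6 and Mcm7 were higher at 24 h. That is 4 of the 8 genes tested, all 4 higher, while edgeR's quasi-likelihood test with Benjamini-Hochberg adjustment called 15.2% of all 3799 genes at an adjusted p of 0.05 or less, 8.61% higher, and 12.4% of named protein-coding genes higher. All 8 fold changes were positive, with a median log2 fold change of 1.65, against 0.15 over all genes tested and 0.73 over the named protein-coding genes. The filter on low counts asks for a set share of counts in at least 4 libraries. Outside propyzamide 24 h, Mcm3, Mcm4 and Mcm7 reached that share in fewer than 4. They were thus tested because of the group where they stood high. The number of calls and the median are therefore no independent support, here or in the other comparisons with that group. Levels of all 6 MCM genes at 24 h lay above all those at 3 h, while Pcna, Mki67 and Top2a overlapped; over all genes tested, 12.3% had groups apart in that direction. Both groups carry the same i5 index of the library names, which no label says marks a batch. The 3 h libraries were shallow for these genes, with 129 counts of the 9 genes in all 4, against 4535 at 24 h, most of them in 1 library.

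**Figure D2:**
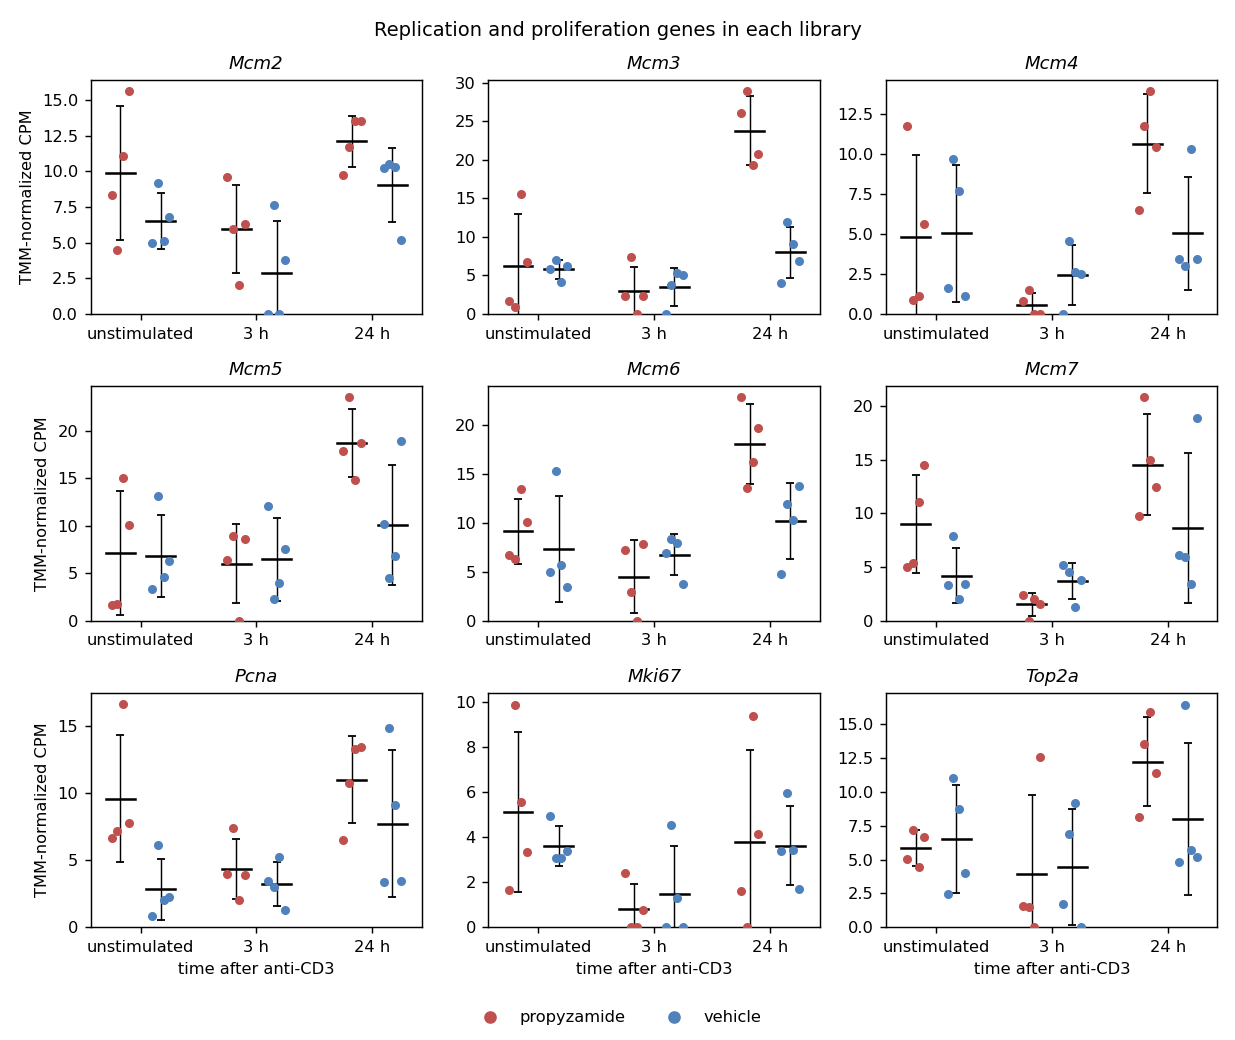
TMM-normalized CPM (vertical axes) of each gene in each library, by time after anti-CD3; points are libraries, lines are means and bars SD (n = 4), cut at 0. In Mcm3 the propyzamide libraries at 24 h span 19.3 to 28.9 CPM and every other library is at 15.6 or below.

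Mcm3 (ENSMUSG00000041859.10, GRCm38 chromosome 1, 20802968 to 20820312, minus strand) encodes an MCM subunit that lies beside Mcm5 in the ring. With propyzamide it had 16, 32, 617 and 20 counts at 24 h, or 26.1, 28.9, 19.3 and 20.8 CPM, and 3, 5, 0 and 3 counts at 3 h, or 2.40, 7.41, 0 and 2.35 CPM. In CPM the lowest library at 24 h was above the highest at 3 h. The CPM of replicate 3 at 24 h rests on a TMM factor of 3.896. In TPM the 24 h libraries were less alike, at 3.73, 5.48, 15.9 and 3.81. The log2 fold change was 2.93 ± 0.68 (SE; edgeR adjusted p = 0.0113). Without propyzamide 3 h replicate 4 the edgeR adjusted p was 0.0551, and over 30 other settings the edgeR or DESeq2 adjusted p ran from 0.00031 to 0.0551.

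Mcm7 (ENSMUSG00000029730.16, chromosome 5, 138164583 to 138172422, minus strand) encodes an MCM subunit of the Mcm4, Mcm6 and Mcm7 core that holds helicase activity. Its levels with propyzamide were 9.77, 20.8, 15.0 and 12.5 CPM at 24 h and 2.40, 0, 2.06 and 1.57 CPM at 3 h, from 522 and 6 counts. Each library at 24 h was above each one at 3 h. It was the member with the smallest p, with a log2 fold change of 3.17 ± 0.69 (edgeR adjusted p = 0.0078), and it was called in each of the 29 other settings that gave a value.

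Mcm4 (ENSMUSG00000022673.5, chromosome 16, 15623897 to 15637400, minus strand) encodes another subunit of that core. Its propyzamide libraries had 4, 13, 444 and 10 counts at 24 h, or 6.51, 11.7, 13.9 and 10.4 CPM, and 1, 1, 0 and 0 counts at 3 h, or 0.801, 1.48, 0 and 0 CPM. Only 2 counts stand behind the 3 h group. The ratio of summed counts, scaled to library size, was 25.0 with a 95% exact interval of 6.88 to 207. It covers counting error only, since it pools the libraries of a group and leaves out the spread between them. Of the 471 counts at 24 h, 444 were in replicate 3. The reads also carry no molecular identifiers, so they are not counts of molecules. The fitted log2 fold change was 4.18 ± 1.06 (edgeR adjusted p = 0.018). It missed the threshold without propyzamide 3 h replicate 4 (edgeR adjusted p = 0.0692).

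Mcm6 (ENSMUSG00000026355.11, chromosome 1, 128331590 to 128359664, minus strand) completes the core. Its levels were 22.8, 13.5, 16.2 and 19.7 CPM at 24 h and 7.21, 2.97, 0 and 7.85 CPM at 3 h with propyzamide, and the groups did not overlap. The log2 fold change was 1.78 ± 0.56 (edgeR adjusted p = 0.0348). This call was the least steady of the 4, since it passed in 10 of 30 other settings, with edgeR or DESeq2 adjusted p from 0.00541 to 0.222.

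The other 2 MCM genes were apart between the groups in CPM only, without passing the test. In TPM, Mcm2 had 1.22 in replicate 1 at 24 h and 2.51 in replicate 1 at 3 h. Mcm5 had 2.26 TPM in replicate 1 at 24 h and 2.45 TPM in replicate 2 at 3 h. Mcm2 (ENSMUSG00000002870.8, chromosome 6, 88883474 to 88898780, minus strand) encodes the subunit that also binds histones at the fork. It spanned 9.77 to 13.5 CPM at 24 h and 2.06 to 9.62 CPM at 3 h, a log2 difference of 0.94 ± 0.57 (edgeR adjusted p = 0.24). Mcm5 (ENSMUSG00000005410.6, chromosome 8, 75109569 to 75128439, plus strand), the subunit that forms the gate of the ring with Mcm2, spanned 14.8 to 23.5 CPM at 24 h and 0 to 8.90 CPM at 3 h. Its log2 difference was 1.52 ± 0.64 (edgeR adjusted p = 0.0941). DESeq2 called 7 of the 8 genes in this comparison, all but Mcm2. Over all genes it called 1044 of 3796, 794 of them higher, which is more than edgeR did.

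Pcna, Top2a and Mki67 missed the threshold in edgeR. Pcna (ENSMUSG00000027342.14, chromosome 2, 132249162 to 132253314, minus strand) had 6.51, 10.8, 13.3 and 13.5 CPM at 24 h and 4.01, 7.41, 2.06 and 3.92 CPM at 3 h with propyzamide, and the lowest value at 24 h was below the highest at 3 h. Its log2 difference was 1.36 ± 0.60 (edgeR adjusted p = 0.112). Its pseudogene Pcna-ps2 had 25 counts over all libraries and Pcna-ps1 had 0.

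Top2a (ENSMUSG00000020914.17, chromosome 11, 98992943 to 99024189, minus strand) had 8.14, 13.5, 15.9 and 11.4 CPM at 24 h, and 1.60, 1.48, 0 and 12.6 CPM at 3 h. Replicate 4 at 3 h lay within the range of the 24 h libraries, and the log2 difference was 1.46 ± 0.71 (edgeR adjusted p = 0.144). Protein-coding transcripts took 74.6% of the Top2a counts. Mki67 (ENSMUSG00000031004.8, chromosome 7, 135689784 to 135716361, minus strand) had 1, 0, 301 and 4 counts at 24 h and 3, 0, 0 and 1 counts at 3 h. In a fit with no filter its log2 difference was 2.24 ± 0.95 (edgeR adjusted p = 0.425), so a change was not detectable at this depth.

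With vehicle, the same comparison of 24 h with 3 h gave positive log2 differences for all 8 genes, with a median of 0.99, and none passed. EdgeR called 0 of the 8 genes and 0.0% of the 3799 genes there, while 462 genes had an unadjusted p under 0.05 and DESeq2 called 80. Mcm2 was the 1 member with an unadjusted p under 0.05 (log2 difference 1.44 ± 0.64, edgeR adjusted p = 0.364). Mcm3 averaged 8.02 ± 3.34 CPM at 24 h and 3.53 ± 2.44 CPM at 3 h with vehicle (SD, n = 4 each; log2 difference 1.06 ± 0.72, edgeR adjusted p = 0.545). Mcm4 averaged 5.03 ± 3.51 CPM at 24 h and 2.43 ± 1.87 CPM at 3 h (log2 difference 0.91 ± 0.90, edgeR adjusted p = 0.681). Mcm7 averaged 8.62 ± 6.98 CPM at 24 h and 3.71 ± 1.70 CPM at 3 h (log2 difference 1.12 ± 0.65, edgeR adjusted p = 0.482). No member had vehicle groups that were apart, against 5.16% of all genes apart with 24 h higher. The vehicle groups at 24 h and 3 h carry different i5 indices, so time and index cannot be told apart there.

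A call with propyzamide and none with vehicle does not show that the treatments differ, so the difference between the 2 changes was fitted as well. None of the 8 genes passed: edgeR called 0 of 3799 genes, with 233 at an unadjusted p under 0.05, and DESeq2 called 1. For Mcm4 the propyzamide change exceeded the vehicle change by 3.27 ± 1.45 on the log2 scale (edgeR adjusted p = 0.77), for Mcm7 by 2.04 ± 0.97 (edgeR adjusted p = 0.797) and for Mcm3 by 1.86 ± 1.01 (edgeR adjusted p = 0.836). The 95% interval for Mcm3 ran from -0.11 to 3.84. The vehicle 3 h group carries another i5 index than the other 3 groups of this fit, so the index cannot be told apart from the difference.

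**Figure D3:**
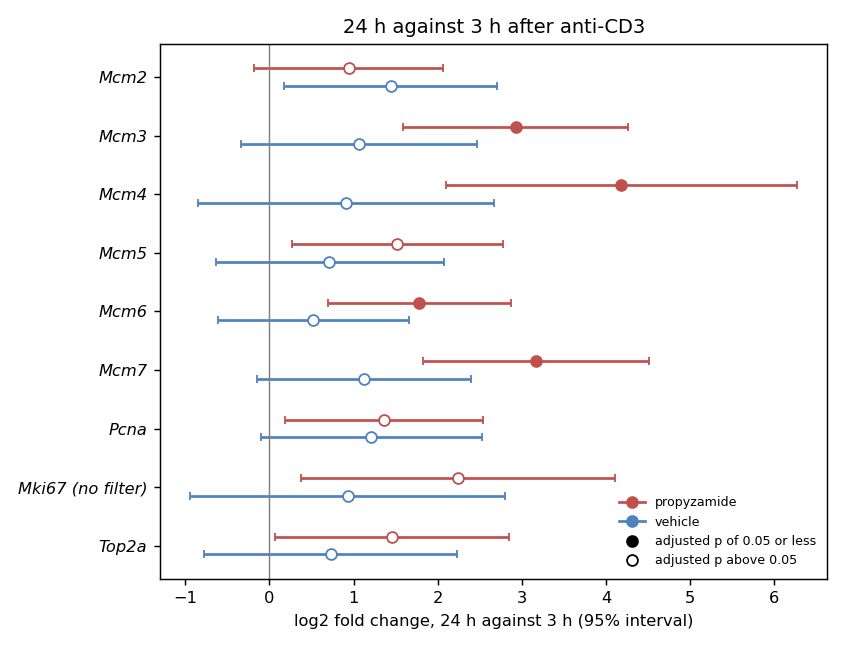
Log2 fold change of each gene at 24 h against 3 h after anti-CD3 (horizontal axis) with propyzamide above vehicle; points are edgeR estimates, bars their approximate 95% intervals, and filled points have an adjusted p of 0.05 or less. Filled points are Mcm3, Mcm4, Mcm6 and Mcm7 with propyzamide, and the intervals of the 2 treatments overlap for each gene.

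At 24 h, propyzamide was also set directly against vehicle. No gene of the 3799 was called by edgeR (0.0%), with 388 at an unadjusted p under 0.05, and DESeq2 called 3, none of them among the 9. All 8 tested members had a positive log2 difference, with a median of 0.85. Mcm3 had 26.1, 28.9, 19.3 and 20.8 CPM with propyzamide and 4.09, 11.9, 9.14 and 6.88 CPM with vehicle. Its groups were apart, as were those of 2.47% of genes in that direction, and the log2 difference was 1.59 ± 0.61 (edgeR adjusted p = 0.379). For the other 8 genes the groups overlapped. Markers of intestinal epithelium moved with this comparison: all 11 tested had a positive log2 difference, with a median of 2.97, 10 had an unadjusted p under 0.05 and none was called. Per 10000 counts of named protein-coding genes the 16 markers summed to 7.17, 4.43, 75.3 and 12.1 with propyzamide and 6.64, 3.08, 2.93 and 2.17 with vehicle, where 2 of the 16 were at 0. The T cell and B cell markers had medians of 0.70 and 0.39, with no unadjusted p under 0.05. The 4 tested plasma cell markers had a median of 1.24, with 2 at an unadjusted edgeR p under 0.05. The 1 tested marker of crypt base and transit-amplifying epithelium had 2.13, also with an unadjusted edgeR p under 0.05. Macrophage and monocyte markers had a median of 0.61, and the 1 tested dendritic cell marker had 0.34. The part of these markers in the differences of the 9 genes was not tested.

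Against unstimulated libraries, the levels at 24 h with propyzamide lay above for all 8 tested genes without a call, except that Pcna turned to -0.05 on the log2 scale (0.19 here) in the fit of named protein-coding genes alone. Mki67, which was not tested, did not lie above. It averaged 3.80 ± 4.11 CPM at 24 h and 5.12 ± 3.56 CPM unstimulated (SD, n = 4 each). Its log2 difference in the fit with no filter was -0.06 ± 0.78. EdgeR called 0 of the 8 and 0.079% of all genes, with 547 genes at an unadjusted p under 0.05, and DESeq2 called 71 genes and no member. Mcm3 averaged 23.7 ± 4.50 CPM at 24 h and 6.22 ± 6.77 CPM unstimulated (SD, n = 4 each), a log2 difference of 1.77 ± 0.60 (edgeR adjusted p = 0.223). Mcm5 averaged 18.7 ± 3.60 CPM at 24 h and 7.14 ± 6.57 CPM unstimulated (log2 difference 1.26 ± 0.61, edgeR adjusted p = 0.345). Mcm3, Mcm6 and Top2a had groups that were apart, against 4.26% of all genes in that direction, though for Mcm6 the nearest libraries were at 13.5 CPM at 24 h and 13.4 CPM unstimulated. With vehicle, 0 of the 8 passed and 0.421% of all genes did; 7 of the 8 were positive with a median log2 difference of 0.45. Over both treatments, edgeR called 0 of the 8 and 2.37% of all genes at 24 h against unstimulated, with a median log2 difference of 0.71 over the 8. The groups at 24 h and the unstimulated ones carry different i5 indices in both treatments, so time and index cannot be told apart.

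At 3 h with propyzamide the 8 tested genes were all below their unstimulated levels, with a median log2 difference of -1.01, except that Mcm5 (-0.26) turned to 0.02 in the fit of named protein-coding genes alone. EdgeR called 0 of the 8 and 0.711% of all genes, with 508 genes at an unadjusted p under 0.05; DESeq2 called 78 genes and no member. Mcm7 had 2.40, 0, 2.06 and 1.57 CPM at 3 h and 5.01, 5.40, 11.1 and 14.5 CPM unstimulated. Its groups were apart, as were those of 5.11% of genes in that direction, with a log2 difference of -2.49 ± 0.71 (edgeR adjusted p = 0.0891). Mcm4 followed with -2.82 ± 1.17 (edgeR adjusted p = 0.304), from 2 counts at 3 h. These groups also differ in i5 index. With vehicle, where both groups share the index, the median log2 difference at 3 h was -0.36, none of the 8 had an unadjusted p under 0.05, and 0.29% of all genes were called. Over both treatments, edgeR called 0 of the 8 and 2.29% of all genes at 3 h, and the 8 had a median log2 difference of -0.67.

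Without stimulation, Pcna stood apart between the treatments. It had 6.68, 7.20, 16.7 and 7.82 CPM with propyzamide, from 4, 8, 30 and 7 counts, and 0.826, 6.14, 2.05 and 2.27 CPM with vehicle, from 1, 14, 4 and 4 counts. The groups did not overlap, as for 0.974% of genes in that direction. The log2 difference was 1.72 ± 0.59 with an edgeR adjusted p of 1.0, and edgeR called no gene (0.0%), with 128 at an unadjusted p under 0.05, while DESeq2 called 1. At 3 h, propyzamide against vehicle gave a median log2 difference of -0.15 over the 8, and edgeR called 0 of them and 0.0% of all genes, with 114 at an unadjusted p under 0.05 and none by DESeq2. The 2 groups at 3 h carry different i5 indices, so treatment and index cannot be told apart there, and the index also enters the mean of stages and the 3 h change given next. Over the mean of the 3 stages, and for the difference between treatments in the change from unstimulated to either time, edgeR also called 0 of the 8 and 0.0% of all genes, with 326 genes at an unadjusted p under 0.05 for the mean, 123 for the 3 h change and 89 for the 24 h change. DESeq2 called 1, 0 and 2 genes in these, none of them a member.

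Among themselves the genes differed most in their shares at 3 h with propyzamide. Mcm4 took 10.4% of the summed counts of the 9 genes at 24 h and 1.55% at 3 h, and Mcm7 took 11.5% at 24 h and 4.41% at 3 h. Mcm2 went the other way, with 10.2% at 24 h and 19.6% at 3 h. The ratio of MCM counts to those of the late genes Mki67 and Top2a was 3.83 at 24 h and 3.96 at 3 h with propyzamide, and ran from 3.56 to 4.38 over the 6 groups. These shares and ratios weight libraries by depth and describe the counts only. At 24 h with propyzamide, replicate 3 held 4199 of the 4535 counts, so the ratio of 3.83 is mostly its own. In replicates 1, 2 and 4 there, Mki67 had 1, 0 and 4 counts and Top2a 5.36, 14.9 and 11.0. Mcm3 alone had 16, 32 and 20 counts in them, so 3.83 does not describe these libraries.

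Per transcript length, which allows levels of different genes to be compared, Pcna had the highest mean TPM in 4 of the 6 groups, and Mcm4 and Mki67 were the 2 lowest in all 6. At 24 h with propyzamide, mean TPM was 8.81 ± 9.34 for Pcna, 8.76 ± 5.48 for Mcm7, 7.23 ± 5.84 for Mcm3, 7.14 ± 4.97 for Mcm6 and 6.31 ± 5.12 for Mcm5 (SD, n = 4). Below these came Top2a at 5.09 ± 3.30, Mcm2 at 4.75 ± 4.90, Mcm4 at 3.61 ± 3.13 and Mki67 at 0.547 ± 0.913 TPM. The deepest library carried these means: for Pcna it had 22.7 TPM, against 2.79 to 5.30 in the other 3. Without it, Mcm7 came first at 6.51 ± 3.84 TPM, followed by Mcm6 at 5.13 ± 3.58, Mcm3 at 4.34 ± 0.988 and Pcna at 4.17 ± 1.27 (SD, n = 3), whose ranges overlapped. Mki67 was again lowest, at 0.0928 ± 0.109 TPM, and its range was below that of Mcm4.

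Across the 24 libraries, Spearman correlations between the CPM of 2 members ran from -0.12 for Mcm5 with Mki67 to 0.71 for Mcm2 with Pcna, with a median of 0.516 over 36 pairs. The libraries fall into the same 6 groups for each gene and share their depth, so these values describe co-variation only. The genes most like the summed members were Hsph1, a heat shock chaperone (rho = 0.881 over 24 libraries), Shisa5 (0.879), Tubb5, a beta tubulin (0.875), Ifi209 (0.872) and Rpsa, a ribosomal protein (0.870). Tubb5 averaged 95.1 CPM at 24 h and 13.9 CPM at 3 h with propyzamide.

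Other genes of DNA replication and the cell cycle were read from 6 lists of 121 further genes, of which 119 were found. With propyzamide at 24 h against 3 h, 25 were tested, 4 were called, all higher, and 22 had a positive log2 difference with a median of 0.58. These calls were near the background, in which 15.2% of all genes were called and 12.4% of named protein-coding genes were called higher, and the median was below the 0.73 of named protein-coding genes. Rpa1, the large subunit of the protein that coats single-stranded DNA, averaged 9.56 ± 3.11 CPM at 24 h and 1.16 ± 1.0 CPM at 3 h (log2 fold change 2.86 ± 0.94, edgeR adjusted p = 0.0411). Ube2c, the ubiquitin carrier of the anaphase-promoting complex, averaged 10.1 ± 1.43 CPM at 24 h and 1.85 ± 0.907 CPM at 3 h (log2 fold change 2.54 ± 0.83, edgeR adjusted p = 0.0411). Ccnd3, cyclin D3 of lymphocytes, rose by 1.71 ± 0.55 on the log2 scale (edgeR adjusted p = 0.0381). Btg2, which slows division, rose by 1.63 ± 0.50 (edgeR adjusted p = 0.0324). These 4 calls were lost in several other settings, among them the fit of named protein-coding genes only, where none of the 25 passed.

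By role, the 6 tested mitosis genes had a median log2 difference of 1.70 and the 4 tested G1 and S phase cyclins, kinases and E2F factors 1.14, with 1 call each. The 7 genes of helicase activation, polymerases and clamp loading had 0.53 with 1 call. The 2 tested licensing factors had 1.06 with no call: Cdt1, which loads the MCM ring, averaged 11.2 ± 4.35 CPM at 24 h and 2.90 ± 2.01 CPM at 3 h (edgeR adjusted p = 0.101), and Orc3, a subunit of the origin recognition complex, 11.6 ± 4.26 CPM at 24 h and 8.95 ± 1.81 CPM at 3 h (edgeR adjusted p = 0.684). The 3 genes of deoxynucleotide supply had -0.20 with no call. Rrm1, the large subunit of ribonucleotide reductase, averaged 28.3 ± 4.33 CPM at 24 h and 32.3 ± 11.8 CPM at 3 h (edgeR adjusted p = 0.757), and Tyms, thymidylate synthase, 9.30 ± 4.04 CPM at 24 h and 13.6 ± 8.88 CPM at 3 h (edgeR adjusted p = 0.529). Orc5, another subunit of the origin recognition complex, with 329 counts over all libraries, and Rrm2, the small subunit of ribonucleotide reductase, with 375, did not pass the filter. In the other 14 comparisons edgeR called none of these list genes.

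**Figure D4:**
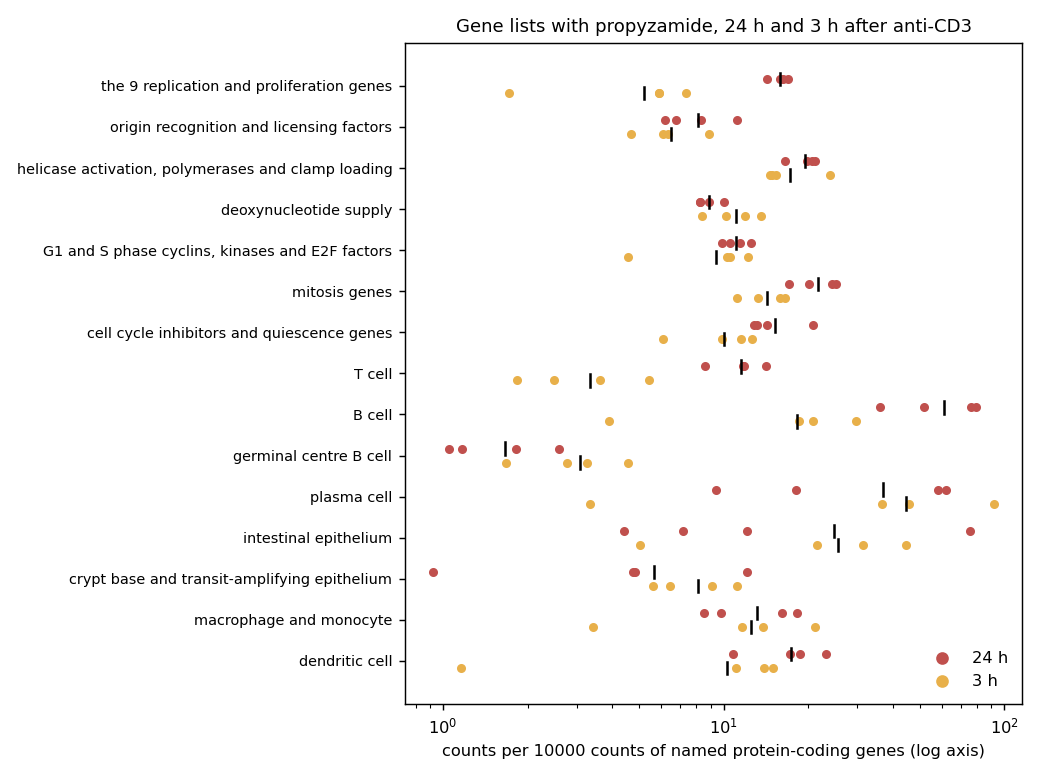
Summed counts of each gene list per 10000 counts of named protein-coding genes (log axis) in the propyzamide libraries, 24 h above 3 h; points are libraries and bars means (n = 4). The 9 genes lie at 14.3 to 16.9 at 24 h and 1.72 to 7.33 at 3 h, and the T cell and B cell lists are apart in the same direction. So are the mitosis genes, at 17.1 to 25.2 and 11.2 to 16.5. The cell cycle inhibitors and quiescence genes are apart narrowly, at 12.8 to 20.8 and 6.09 to 12.6.

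Markers of lymphocytes moved with the MCM genes. Per 10000 counts of named protein-coding genes, the 12 T cell markers summed to between 8.61 and 14.2 at 24 h and between 1.83 and 5.44 at 3 h with propyzamide, and the 10 B cell markers to between 36.2 and 79.2 at 24 h and between 3.90 and 29.6 at 3 h. No marker of these 2 lists was at 0 in either group. Of the 3 tested T cell markers, Lck and Trbc2 were called higher at 24 h, and among the 10 tested B cell markers Cd79a, Cd79b, Ighd and Ighm were called higher, where 8.61% of all genes and 12.4% of named protein-coding genes were. The 8 germinal centre B cell markers, which mark a dividing B cell state, were at 1.05 to 2.58 at 24 h and 1.67 to 4.57 at 3 h. Markers of crypt base and transit-amplifying epithelium, the dividing cells of the gut lining, were at 0.920 to 12.1 at 24 h and 5.59 to 11.2 at 3 h, with 1 marker at 0 in the 3 h group. Lists for plasma cells, intestinal epithelium, macrophages and dendritic cells overlapped between the groups and had no call. The part of these cell type markers in the change of the MCM genes was not tested.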

How the data were processed

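Libraries were made by SMART-seq2 and quantified with kallisto on GRCm38, per the submitters' processing notes, which give no version. The deposited files hold expected counts (estimated counts per transcript) and TPM for 142604 transcripts, per the file headers; another deposited column (unit: other) gives each transcript's effective length. Estimated counts were summed by gene and rounded, and TPM was summed by gene. Symbols are those in the files, and coordinates are from GENCODE on GRCm38; promoter windows came from RefSeq. The rule for the 9 genes uses no measured value, but they and the gene lists were proposed with earlier results of these data known; 2 of 121 list genes were not matched by symbol.

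The test was that of edgeR 4.0.16, run in R 4.3.3: 1 coefficient per group over 24 libraries, filterByExpr, TMM factors and the quasi-likelihood F test, with Benjamini-Hochberg adjustment over 3799 genes within each comparison and a threshold of 0.05. The biological coefficient of variation was 46.4%. CPM uses the counts in tested genes times the TMM factor. Groups of a single gene are said to be apart or to overlap in CPM unless TPM is named. The named protein-coding genes are those left after removing numbered or clone-named models, olfactory and vomeronasal receptors and mitochondrial genes. The 14 comparisons covered treatment and stimulation; 1 more, the difference between treatments in the change between 3 h and 24 h, was added after the data were seen. Named list genes were those called or, where a list had no call, its 3 with the most counts. The genes most like the members were the 5 tested genes outside members and lists with the highest Spearman correlation with their summed CPM. Fits were checked on simulated counts for 24 h against unstimulated with propyzamide. Of log2 changes of 1, 2, 3 and 4, with 50 genes each, 4%, 64%, 90% and 100% were recovered, with 3 false calls. Changes near 1 would thus mostly go uncalled. Intervals have a nominal 95% confidence and cover counting error only where they rest on counts. Those of fold changes are normal approximations, with an SE taken from the F statistic. They are somewhat narrow and can leave out 0 where the F test gives an unadjusted p above 0.05. Other settings were RLE factors, no filter, named protein-coding genes only, only the groups compared, DESeq2 1.42.0, each library left out in turn, and, added after the data were seen, the deepest and the shallowest library left out. No 2 libraries held identical counts. Calls of some single marker genes are not reported here.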

Additional observations from a re-analysis of the deposited data

Results flagged for a closer look

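Of 60 sets of 4 libraries examined (the 9 genes and their summed level in each of 6 groups), 5 held a library far from the other 3. The measure was Dixon's Q, the gap to the nearest value over the range. Its chance rate of about 1 in 20 holds for independent, normal values. These low counts from shared libraries are not such values, so that rate is only a rough guide. With propyzamide, Pcna unstimulated had 16.7 CPM in replicate 3, against 6.68 to 7.82 in the others, and Top2a at 3 h had 12.6 CPM in replicate 4, against 0 to 1.60. With vehicle at 24 h, Mcm2 had 5.16 CPM in replicate 4, against 10.2 to 10.5, Mcm4 had 10.3 CPM in replicate 3, against 2.99 to 3.44, and Top2a had 16.4 CPM in replicate 2, against 4.78 to 5.71.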

How the results depend on the processing

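In the 24 h against 3 h comparison with propyzamide, 4 of the 9 genes were called; the number was 7 with DESeq2, 1 (Mcm3) in the fit of only the groups compared and 2 (Mcm3 and Mcm7) without the deepest and shallowest libraries, a setting chosen after seeing the data. The fit of only the groups compared did not test Mcm4 and Mcm7, so their absence there is not a lost call. Leaving out each library gave 1 to 4 calls, with 1 (Mcm7) without propyzamide 3 h replicate 4. Called genes of the 6 further lists numbered 4, against 8 with RLE factors, 11 with DESeq2, 2 in the fit of only the groups compared, and 0 with named protein-coding genes alone, with no filter and without the deepest and shallowest libraries; leaving out each library gave 0 to 4. At 3 h against unstimulated over both treatments, 0 list genes were called, against 1 with RLE factors, with no filter and with DESeq2, and 0 to 1 on leaving out each library. Over all genes, 579 calls at 24 h against 3 h with propyzamide became 891 with RLE factors, 1044 with DESeq2, 158 with no filter, 109 with named protein-coding genes only, 101 with only the groups compared, 64 without the deepest and shallowest libraries, and 99 to 803 on leaving out each library. Fits without a library repeated the filter, so the genes tested changed too.

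With total counts as denominator, the log2 ratio of the summed level at 24 h with propyzamide was 2.68 against 3 h (1.61 per named protein-coding count), 1.57 against unstimulated (0.80), where the groups then overlapped, and 1.84 against vehicle (0.61); the vehicle groups at 24 h and 3 h no longer overlapped. Directions turned for values near 0: Mcm5 at 3 h against unstimulated with propyzamide (-0.26) was 0.02 with named protein-coding genes only, and 0.50 and 0.06 without propyzamide unstimulated replicate 3 and propyzamide 3 h replicate 3 (range on leaving out each library -0.48 to 0.50); Top2a in that comparison (-0.34) was 0.03 without propyzamide 3 h replicate 1 (range -2.16 to 0.03); Pcna at 24 h against unstimulated (0.19) was -0.05 with named protein-coding genes only. The cause was not tested. No paired analysis was possible because the labels carry no replicate numbers. Depth is a limit: outside 1 library the 9 genes had 1520 counts.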
